A study of Mus musculus and Sus scrofa with 18 samples.

Results

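The genes described here encode subunits of the receptors for glutamate and GABA, and were measured in the striatum of mice carrying a Huntington's disease (HD) allele and of WT mice. The list was set by name and receptor class, with no measured value in its rule. It holds 35 mouse genes of the 55357 counted. They comprise 4 AMPA, 5 kainate and 7 NMDA receptor subunits, 1 delta glutamate receptor, 6 metabotropic glutamate receptors, 10 GABA-A subunits and 2 GABA-B subunits. Each of the 35 passed the filter on low counts that left 19463 genes for testing.

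The striatum is the input nucleus of the basal ganglia. Nearly all of its neurons are GABA-releasing projection neurons, which receive glutamate from cortex and thalamus and inhibit each other and their targets. AMPA, kainate and NMDA receptors are glutamate-gated ion channels assembled from several subunits, and the subunit mix sets their conductance, kinetics and calcium entry. Metabotropic glutamate receptors act through G proteins, and many of them sit on nerve terminals, where they reduce transmitter release. GABA-A receptors are chloride channels, whereas GABA-B receptors are G protein-coupled pairs of unlike subunits.

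There were 9 RNA-seq libraries from 9 mice, 3 in each of 3 groups. The HD mice were heterozygous HD 140Q-KI animals on a C57BL/6J background, whose mouse Htt exon 1 has been exchanged for the human exon carrying a long CAG tract. All mice received AAV9 vectors by bilateral injection into the striatum at 6 months of age, and tissue was taken 1.5 months later. WT mice were given the control gRNA (Ctrl gRNA) vector without CasRx, an RNA-cutting Cas13d enzyme. HD untreated mice were given AAV-CasRx with the Ctrl gRNA, and HD treated mice were given AAV-CasRx with HTT gRNAs. CasRx was driven by the ubiquitous CAG promoter and the gRNAs by U6, promoters that are not specific to neurons. Which cell types expressed CasRx and the gRNAs was not tested here. Untreated HD mice thus differ from WT mice by their allele and by the presence of CasRx, and the effects of these cannot be told apart. In such bulk tissue, fewer cells of a type and less RNA per cell cannot be told apart either.

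Total counts per library ranged from 27184356 to 32102121, and the 35 genes held between 0.439% and 0.534% of them. Htt, counted from both alleles by the 3′ libraries, lay between 182 and 191 CPM (a gene's count relative to the library's TMM-scaled total) in WT, between 140 and 150 in untreated and between 130 and 140 CPM in treated mice. Markers of striatal projection neurons were abundant in every library, from 2263 to 8744 summed CPM, which is what the tissue label requires. Y-linked reads were found in the 3 WT mice and in untreated replicate 1 and were 0 in the other 5, so that sex and group were nearly confounded. WT replicate 1 had 949 summed CPM of the cortical glutamatergic neuron markers against 411 and 235 in the other WT mice, and choroid plexus markers ranged from 34.9 to 3736 over the 9 libraries. Thalamic neuron markers summed to 155 CPM in WT replicate 3 against 34.4 and 27.1 CPM in the other WT mice. In HD mice they summed to between 42.0 and 73.6 CPM.

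Promoter sequence was available for 25 of the 35 genes (32 promoters, RefSeq, GRCm38.p6), each from 250 bases before to 50 bases after the transcript start. The 4 below belong to 2 pairs of close relatives whose transcripts moved in opposite directions in untreated HD mice, namely Grm2 (chr9:106656060-106656359, minus strand) against Grm3 (chr5:9725303-9725602, minus strand) and Gabbr2 (chr4:46991665-46991964, minus strand) against Gabbr1 (chr17:37045716-37046015, plus strand). Capitals mark GC boxes (GGGCGG, either strand) and, in Grm2, the left part TTCAGCACC and the right part GGACAGC of the RE1 element, to which the repressor REST binds.
Grm2: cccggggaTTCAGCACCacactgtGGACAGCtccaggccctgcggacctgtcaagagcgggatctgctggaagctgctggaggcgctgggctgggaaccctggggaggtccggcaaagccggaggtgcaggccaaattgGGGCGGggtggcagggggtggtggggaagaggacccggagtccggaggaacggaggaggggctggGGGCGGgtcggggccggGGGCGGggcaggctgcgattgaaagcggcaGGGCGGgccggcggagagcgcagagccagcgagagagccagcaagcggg
Grm3: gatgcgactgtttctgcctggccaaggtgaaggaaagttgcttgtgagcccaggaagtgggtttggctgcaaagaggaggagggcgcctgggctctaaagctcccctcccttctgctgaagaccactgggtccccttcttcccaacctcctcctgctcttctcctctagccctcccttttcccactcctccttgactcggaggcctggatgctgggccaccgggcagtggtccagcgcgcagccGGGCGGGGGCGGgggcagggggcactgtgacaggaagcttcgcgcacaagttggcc
Gabbr1: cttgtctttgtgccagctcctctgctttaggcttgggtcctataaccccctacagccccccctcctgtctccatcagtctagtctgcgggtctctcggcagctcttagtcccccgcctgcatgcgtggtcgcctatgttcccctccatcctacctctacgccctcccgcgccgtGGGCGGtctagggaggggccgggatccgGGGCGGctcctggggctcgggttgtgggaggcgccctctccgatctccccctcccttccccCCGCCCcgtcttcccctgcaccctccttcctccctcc
Gabbr2: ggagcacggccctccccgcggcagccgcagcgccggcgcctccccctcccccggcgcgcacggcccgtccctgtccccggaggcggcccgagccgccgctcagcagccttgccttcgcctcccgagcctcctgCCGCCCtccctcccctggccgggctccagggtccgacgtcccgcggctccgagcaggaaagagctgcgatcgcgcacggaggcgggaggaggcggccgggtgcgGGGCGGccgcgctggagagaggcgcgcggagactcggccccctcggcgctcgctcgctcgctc
The GC box stood in 17 of the 32 receptor promoters (53.1%) and in 35.7% of all 32851 promoters of this length. It occurred 4 times in Grm2, 2 times in Grm3, 3 times in Gabbr1 and 2 times in Gabbr2, so both members of each pair held it. The left RE1 part was present in Grm2 alone of the 32 receptor promoters and in 0.371% of all promoters. The right part was present in 2 of the 32 (6.25%, Grm2 and Gria2) and in 6.56% of all. Also searched were the CRE motif TGACGTCA, in 0 of the 32 and 1.79% of all, and the TATA box TATAAA. The latter was in 4 of the 32 (12.5%) and in 13.6% of all. These are matches of letters in a window and were not tested as binding sites. The median ratio of observed to expected CpG was 0.557 in the receptor promoters and 0.384 in all promoters. The part of base composition in the GC box shares was not tested.

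To ask which receptor transcripts differ in HD striatum, untreated HD mice were first compared with WT mice. Of the 35 genes, 12 passed an adjusted p of 0.05 (34.3%; edgeR quasi-likelihood test, Benjamini-Hochberg adjustment over all genes tested), where 10.7% of all genes tested did. Of these, Grm2, Gabbr2 and Gabra3 rose, whereas Grm4, Grm3, Gabrd, Gabbr1, Grik2, Grin2b, Grin2c, Gria1 and Grid1 fell. The 3 that rose compare with 4.58% of all genes rising, and the 9 that fell compare with 6.1% falling. The median log2 fold change was -0.14 over the 35 genes and 0.02 over all genes tested. An unadjusted P under 0.05 was reached by 22 of the 35, against 28.6% of all genes, and 3 of them also differed at least 2-fold (Grm2, Grm4 and Grin3b), where 8.16% of all genes did. Between untreated and WT mice 16 of the genes had no overlap between groups, against 30.1% of all genes. The count of 12 depended on single libraries: it was 20 without WT replicate 1, 6 without WT replicate 2 or untreated replicate 1, 5 without untreated replicate 3, 7 without treated replicate 3 and 8 without any of the other 4. Over these fits the share of all genes called ranged from 4.57% (without WT replicate 2) to 12.9% (without WT replicate 1). The receptor count was 1 (Grm4) with the Y-linked share as a covariate and 2 (Grm4 and Gabrd) when only the compared groups were fitted. It was 6 with no filter on low counts and 0 with the cortical marker level as a covariate. Of all genes, 1.38%, 3.89%, 3.1% and 0.277% passed in these fits, in that order. The cortical marker sums of WT and untreated mice did not overlap.

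**Figure D1:**
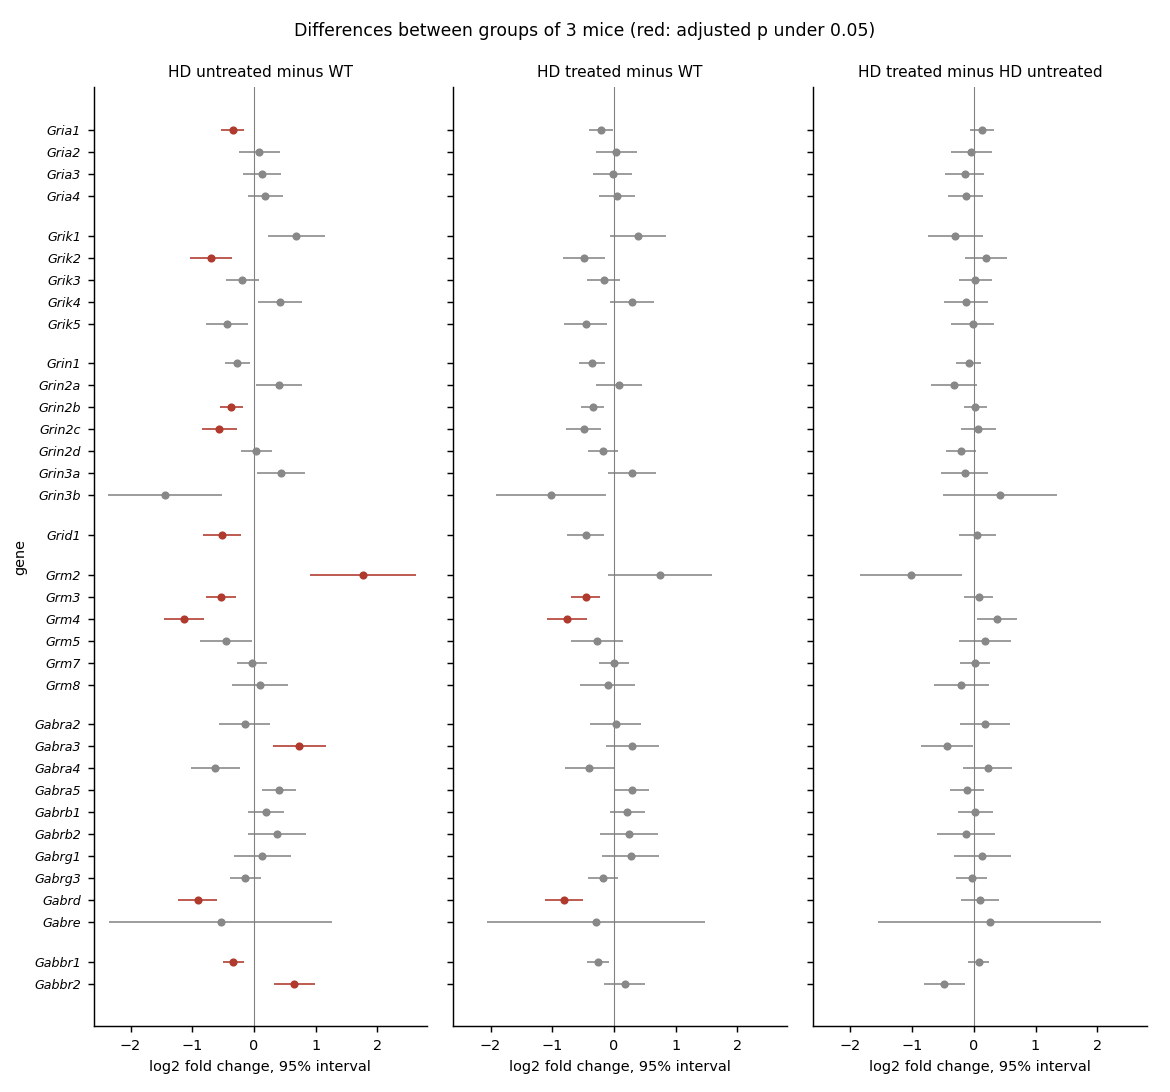
Log2 fold change of each of the 35 receptor genes in the 3 comparisons between groups of 3 mice, with 95% intervals, and red marking an adjusted p under 0.05. In untreated HD against WT mice 12 genes are red, in treated HD against WT mice 3 are, and between treated and untreated HD mice none is.

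Among the 12 genes past the adjusted threshold, the metabotropic receptors Grm2 and Grm4 had the largest rise and the largest fall. Grm4 encodes mGluR4, a group III receptor on the terminals of corticostriatal and striatopallidal neurons. Its level was 63.2, 87.4 and 96.95 CPM in WT mice, 36.2, 41.8 and 34.5 CPM in untreated HD mice and 47.5, 47.3 and 51.5 CPM in treated HD mice. The groups did not overlap in any pairing, and the treated mice lay between the others. Grm4 fell by 54.6% in untreated HD mice (log2 fold change -1.14, SE 0.15, adjusted p = 0.00224) and fell by 40.9% in treated HD mice (-0.76, SE 0.14, adjusted p = 0.0240), each against the same WT mice. In untreated mice the call held under 18 of 19 alternative analyses, the exception being the fit with cortical marker level as a covariate (adjusted p = 0.0730, range 1.02e-10 to 0.0730). In treated mice the call was lost without WT replicate 2 or 3 or without any 1 of the treated mice.

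Grm2 and Grm3 encode the group II receptors mGluR2 and mGluR3, which couple to inhibition of adenylyl cyclase. Grm2 is known as a presynaptic autoreceptor of glutamatergic terminals, and Grm3 is also expressed by astrocytes. Grm2 was at 11.9, 6.64 and 2.96 CPM in WT mice, 23.8, 24.2 and 24.9 CPM in untreated HD mice and 13.7, 10.4 and 11.8 CPM in treated HD mice. The untreated mice were close together and all above the other 6, and WT replicate 1 lay within the range of the treated mice. Grm2 rose 3.40-fold in untreated HD mice (log2 fold change 1.76, SE 0.38, adjusted p = 0.0220), a call lost without WT replicate 2 or untreated replicate 2. In treated mice its difference from WT was 0.75 (95% interval -0.10 to 1.59, adjusted p = 0.288).

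Grm3, in contrast, was at 61.4, 56.4 and 64.8 CPM in WT mice, 47.7, 42.5 and 35.7 CPM in untreated and 42.8, 46.1 and 44.1 CPM in treated HD mice. Every HD mouse was below every WT mouse. Grm3 fell by 31.1% in untreated HD mice (log2 fold change -0.54, SE 0.11, adjusted p = 0.0163) and fell by 27.2% in treated HD mice (-0.46, SE 0.11, adjusted p = 0.0487). The second of these calls was at the edge of the threshold and held under 4 of 19 alternatives (adjusted p 0.00442 to 0.848); it was lost without any 1 of the WT or treated mice and without untreated replicate 2. Grm5, the group I receptor mGluR5 of projection neurons, differed from WT by -0.45 in untreated mice without passing the adjusted threshold (adjusted p = 0.148). It was at 315 CPM in WT replicate 3, which had the most thalamic marker signal of the WT mice, and at 214 and 179 CPM in the other WT mice. Grm7 and Grm8, both group III, differed by -0.03 and 0.10 (adjusted p = 0.902 and 0.795).

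Among NMDA receptor subunits, 2 of 7 fell in untreated HD mice and none rose. Grin2b encodes GluN2B, the subunit that carries the glutamate site in the slower receptors and predominates in projection neurons. It was at 456, 429 and 471 CPM in WT mice, 352, 371 and 329 CPM in untreated and 386, 327 and 355 CPM in treated HD mice. All HD mice were below all WT mice, and the treated and untreated mice overlapped. Grin2b fell by 22.4% in untreated HD mice (log2 fold change -0.37, SE 0.08, adjusted p = 0.0270), and in treated mice its difference from WT was -0.34 (adjusted p = 0.0562).

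Grin2c encodes GluN2C, whose receptors are less sensitive to magnesium block. Its level was 69.2, 96.7 and 70.6 CPM in WT mice, 52.4, 53.7 and 54.2 CPM in untreated and 58.9, 59.2 and 50.5 CPM in treated HD mice. WT replicate 2 was well above the other WT mice, and both HD groups lay below all 3. Grin2c fell by 32.2% in untreated HD mice (log2 fold change -0.56, SE 0.13, adjusted p = 0.0256), and its difference was -0.49 in treated mice (adjusted p = 0.0674).

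Grin2a, encoding GluN2A of the faster receptors, went the other way without passing the adjusted threshold. It was at 168, 104 and 117 CPM in WT mice, 192, 162 and 159 CPM in untreated and 148, 123 and 139 CPM in treated HD mice. Untreated mice overlapped with WT replicate 1 alone, and treated mice overlapped with WT mice. The difference from WT was 0.40 in untreated (SE 0.17, adjusted p = 0.148) and 0.08 in treated mice (adjusted p = 0.831). Grin1, the subunit that every NMDA receptor contains, had log2 differences from WT of -0.27 (untreated) and -0.35 (treated; adjusted p = 0.0897 and 0.0684), with no overlap between either HD group and WT. Grin3b had the largest difference of the class, -1.44 in untreated mice (adjusted p = 0.0527), but on 16 to 80 counts per library, and it overlaps the far more abundant Tmem259 on the opposite strand. Grin2d and Grin3a differed from WT by 0.04 and 0.44 in untreated mice (adjusted p = 0.868 and 0.130).

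**Figure D2:**
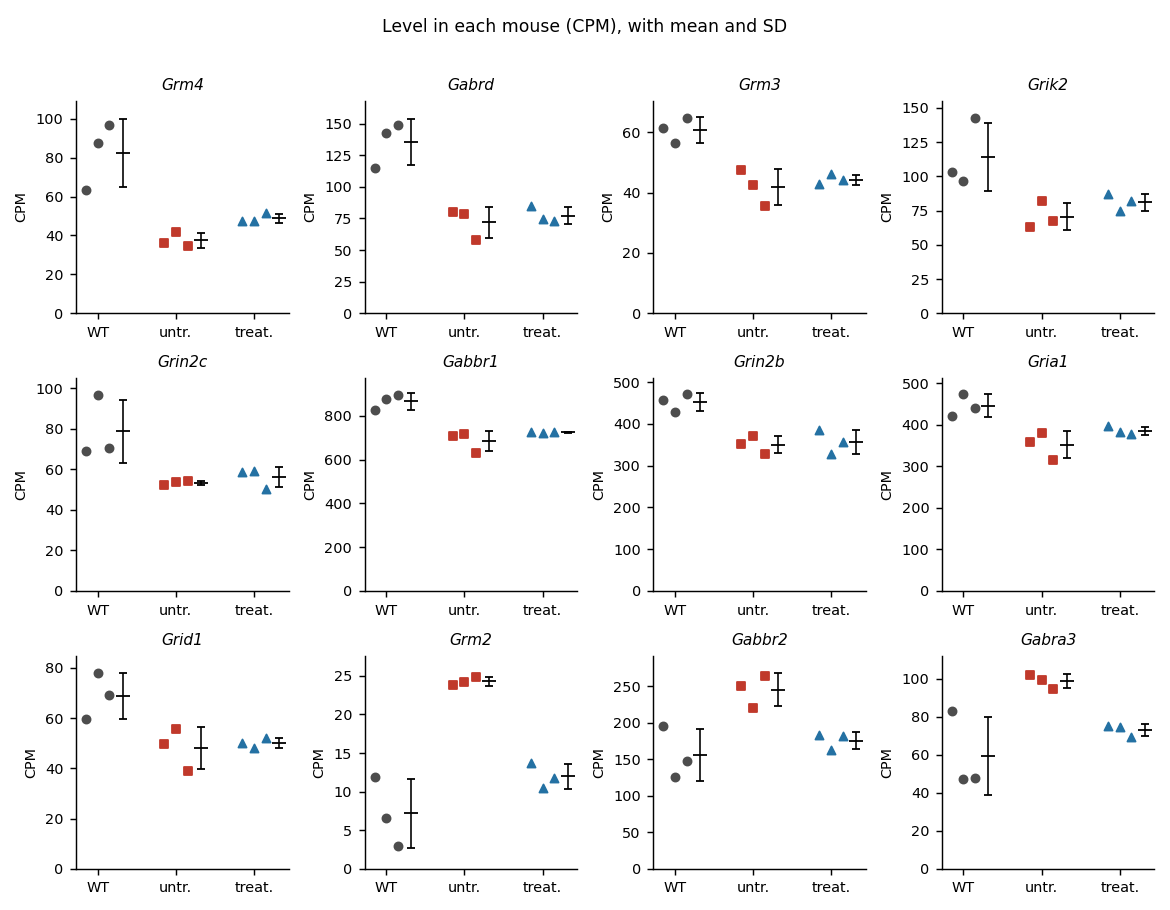
Level in CPM of the 12 genes that passed the adjusted threshold in untreated HD against WT mice, with a point for each of the 3 mice of a group and the mean and SD beside them (untr. and treat. stand for untreated and treated HD mice). Grm2, Gabbr2 and Gabra3 are higher in all 3 untreated HD mice than in any WT mouse, and the other 9 are lower.

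Of the AMPA receptor subunits only Gria1 passed the threshold. It encodes GluA1, a subunit whose insertion at synapses is regulated by activity. It was at 421, 475 and 441 CPM in WT mice, 358, 380 and 316 CPM in untreated and 396, 382 and 378 CPM in treated HD mice. Neither HD group reached the lowest WT value. Gria1 fell by 21.2% in untreated HD mice (log2 fold change -0.34, SE 0.08, adjusted p = 0.0335), and its difference was -0.21 in treated mice (adjusted p = 0.190). Gria2, whose edited subunit makes the channel impermeable to calcium, differed from WT by 0.08 in untreated mice (95% interval -0.25 to 0.42, adjusted p = 0.760). Gria3 and Gria4 differed by 0.13 and 0.18 (adjusted p = 0.585 and 0.377).

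Of the kainate receptor subunits only Grik2, encoding GluK2, passed. Its level was 103, 96.4 and 142 CPM in WT mice, 62.8, 81.6 and 67.3 CPM in untreated and 87.0, 74.7 and 81.8 CPM in treated HD mice. WT replicate 3, the WT mouse with the most thalamic marker signal, was the highest, and no HD mouse reached the lowest WT value. The part of thalamic content in these levels was not tested. Grik2 fell by 38.1% in untreated HD mice (log2 fold change -0.69, SE 0.15, adjusted p = 0.0232), and its difference from WT was -0.49 in treated mice (adjusted p = 0.105). The other 4 subunits spread in both directions in untreated mice, from 0.69 for Grik1 (adjusted p = 0.0616) and 0.42 for Grik4 (adjusted p = 0.119) to -0.44 for Grik5 (adjusted p = 0.0954) and -0.19 for Grik3 (adjusted p = 0.327).

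Grid1 encodes GluD1, a delta receptor that links presynaptic neurexins to the postsynaptic side through cerebellins. It was at 59.5, 77.8 and 69.0 CPM in WT mice, 49.6, 55.6 and 38.9 CPM in untreated and 50.04, 48.1 and 51.9 CPM in treated HD mice. All 6 HD mice were below the 3 WT mice. Grid1 fell by 30.2% in untreated HD mice (log2 fold change -0.52, SE 0.14, adjusted p = 0.0407), and its difference was -0.46 in treated mice (adjusted p = 0.0930).

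Among GABA-A receptor subunits 1 of 10 fell and 1 rose. Gabrd encodes the delta subunit of extrasynaptic receptors, which carry tonic inhibition. It was at 115, 143 and 149 CPM in WT mice, 79.9, 78.2 and 57.8 CPM in untreated and 84.7, 74.4 and 72.7 CPM in treated HD mice. The HD groups overlapped with each other and lay clearly below WT mice. Gabrd fell by 46.9% in untreated HD mice (log2 fold change -0.91, SE 0.14, adjusted p = 0.00536) and fell by 43.0% in treated HD mice (-0.81, SE 0.14, adjusted p = 0.0159). The call in treated mice was lost without WT replicate 2 or without any 1 of the treated mice.

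Gabra4, the alpha subunit that commonly assembles with delta in the striatum, differed from WT by -0.63 in untreated (adjusted p = 0.0518) and by -0.40 in treated mice (adjusted p = 0.227), with no overlap with WT mice in either case. It was at 148, 145 and 235 CPM in WT mice, 113, 127 and 103 CPM in untreated and 135, 121 and 144 CPM in treated HD mice. The highest was WT replicate 3, the WT mouse with the most thalamic marker signal, whose part was not tested. Gabra4 and Gabrb1 overlap on opposite strands in the annotation, and strand use in counting was not given, so reads of this pair cannot be told apart with certainty.

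Gabra3, an X-linked gene for a synaptic alpha subunit, rose. It was at 83.1, 47.3 and 47.7 CPM in WT mice, 102, 99.3 and 94.8 CPM in untreated and 75.0, 74.9 and 69.2 CPM in treated HD mice. Untreated mice were above all others, and WT replicate 1 lay above the treated mice. Gabra3 rose 1.66-fold in untreated HD mice (log2 fold change 0.73, SE 0.19, adjusted p = 0.0390), and its difference from WT in treated mice was 0.30 (adjusted p = 0.398). With the Y-linked share as a covariate the difference in untreated mice was 0.78 and no longer passed (adjusted p = 0.199), and sex and group cannot be told apart here. Gabra5 differed from WT by 0.41 in untreated and 0.29 in treated mice (adjusted p = 0.0657 and 0.216). The other 6 subunits of the class, Gabra2, Gabrb1, Gabrb2, Gabrg1, Gabrg3 and Gabre, had adjusted p from 0.271 to 0.713 in untreated mice, and Gabre was nearly undetected at 4 to 36 counts per library.

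The GABA-B receptor requires both of its subunits. Gabbr1 binds GABA, and Gabbr2 couples to the G protein and brings the pair to the cell surface. Gabbr1 was at 825, 876 and 897 CPM in WT mice, 708, 717 and 631 CPM in untreated and 725, 723 and 726 CPM in treated HD mice. The HD mice were all below the WT mice, and the treated mice were nearly identical. Gabbr1 fell by 20.9% in untreated HD mice (log2 fold change -0.34, SE 0.08, adjusted p = 0.0258), and its difference was -0.26 in treated mice (adjusted p = 0.0964).

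Gabbr2 was at 195, 125 and 148 CPM in WT mice, 250, 221 and 265 CPM in untreated and 184, 163 and 181 CPM in treated HD mice. Untreated mice were above all other mice, whereas the treated mice lay within the WT range. Gabbr2 rose 1.57-fold in untreated HD mice (log2 fold change 0.65, SE 0.15, adjusted p = 0.0255), and its difference was 0.17 in treated mice (95% interval -0.16 to 0.50, adjusted p = 0.542). The 2 subunits of the same receptor thus moved in opposite directions in untreated HD mice.

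**Figure D3:**
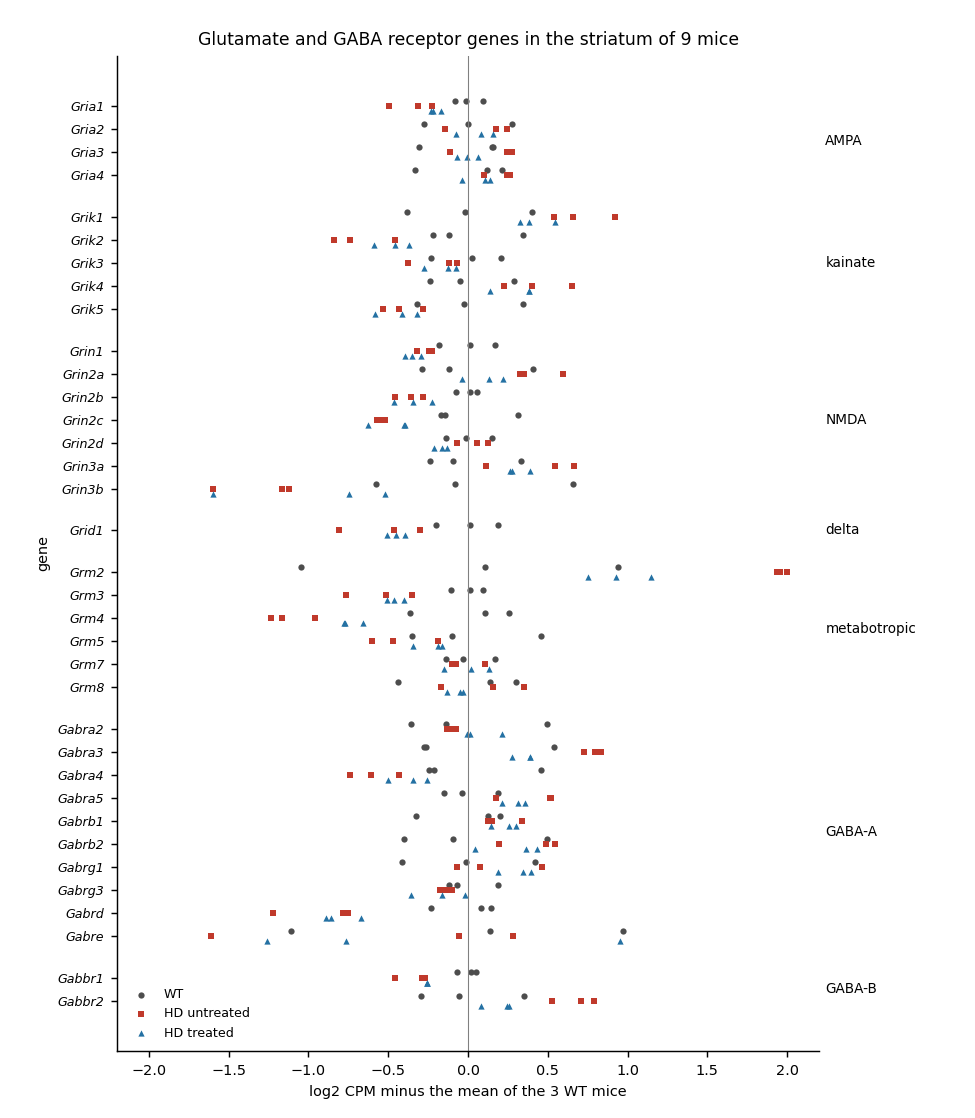
Log2 CPM of all 35 receptor genes in each of the 9 mice, minus the mean of the 3 WT mice, grouped by receptor class. Grm4, Gabrd and Grm3 lie to the left of the WT points in all 6 HD mice, and Grm2 lies furthest to the right in the untreated HD mice.

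Leaving out single mice ended several of the calls in untreated HD mice. Over the 19 alternatives the adjusted p of Gabrd ranged from 1.61e-07 to 0.298 and that of Grm3 from 0.000249 to 0.362, and neither call was lost by leaving out a mouse. Grik2 lost its call without untreated replicate 1 or 3 (range 0.000380 to 0.519), and Grin2c did so without any 1 of the untreated mice (range 0.00118 to 0.445). Gabbr2 lost it without WT replicate 2 or 3 or untreated replicate 3 (range 0.000299 to 0.537). Grin2b lost it without WT replicate 3, untreated replicate 1 or 3 or treated replicate 3 (range 0.000661 to 0.432). For Gabbr1 the call held when WT replicate 1 or untreated replicate 1 was left out and was lost without any other mouse (range 0.000191 to 0.482). For Gria1 and Grid1 it held without WT replicate 1 or untreated replicate 2 and was lost without any other mouse (ranges 0.00226 to 0.493 and 0.00595 to 0.599), and for Gabra3 it held without WT replicate 1 alone (range 0.000197 to 0.666).

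Markers of some cell types also differed between the groups. The 13 projection neuron markers summed to 6509, 8312 and 8744 CPM in WT mice, 2263, 2683 and 2302 CPM in untreated and 3589, 3503 and 3593 CPM in treated HD mice, and 13 of 13 fell in untreated and 9 of 13 in treated mice. The 7 cortical glutamatergic neuron markers summed to 949, 411 and 235 CPM in WT mice, 1301, 1084 and 1316 CPM in untreated and 808, 811 and 749 CPM in treated HD mice. Of these, 2 of 7 (Cux2 and Neurod2) rose in untreated mice, and none of the 7 was at 0 in any library. At an unadjusted P below 0.05 all 7 were higher in untreated than in WT mice, and 6 of them differed at least 2-fold. The median log2 fold change of the 7 was 1.22. Grm2, Gabra3 and Gabbr2, the genes that rose, had the same order of groups as the cortical list and, like it, their highest WT value in WT replicate 1. The part of cortical or projection neuron content in the receptor differences was not tested. An alternative added after seeing the data used the log2 sum of the cortical list as a covariate. None of the 35 genes then passed the adjusted threshold in untreated mice, and 0.277% of all genes did. The unadjusted P was under 0.05 for 9 of the 35. The cortical sums of WT and untreated mice did not overlap, so this fit cannot tell cortical level from group. The gene Slc17a7 alone held 383 of a mean sum of 531 CPM in WT and 880 of 1233 CPM in untreated mice.

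The 12 pan-neuronal markers summed to 6848, 5335 and 5963 CPM in WT mice, 7951, 7139 and 6615 CPM in untreated and 6462, 6072 and 6395 CPM in treated HD mice, so that the WT mice overlapped with both HD groups and the untreated mice lay above the treated mice, and 3 of 12 (Elavl4, Stmn2 and Syn1) rose and none fell in untreated mice. The 7 interneuron markers summed to between 307 and 395 CPM in all 9 mice, and 2 of 7 (Chat and Nos1) fell in untreated mice. The 6 microglial markers summed to between 211 and 235 CPM in WT mice. Their sums were 288, 327 and 746 CPM in untreated and 357, 451 and 480 CPM in treated mice. Of these 6 markers, 1 rose in untreated mice, and 5 were higher there at an unadjusted P below 0.05. The 6 T cell markers summed to at most 0.465 CPM in WT mice. Their sums were 2.81, 7.29 and 58.9 CPM in untreated and 3.80, 6.39 and 13.7 CPM in treated mice. Of the T cell markers 5 of 6 rose in untreated mice, and each of the 6 was at 0 in at least 1 library. In both lists untreated replicate 3 was the highest of the 9 mice. The 7 astrocyte markers, of a cell type that expresses Grm3, summed to between 1186 and 1362 CPM in WT, 1270 and 1621 in untreated and 1327 and 1679 CPM in treated mice, and none of 7 passed the adjusted threshold in untreated mice. Of these 7, 3 were higher and 1 was lower in untreated mice at an unadjusted P below 0.05. Among the 3 was Gfap, the marker of reactive astrocytes. It was at 143, 180 and 86.2 CPM in WT, 231, 264 and 575 CPM in untreated and 238, 477 and 369 CPM in treated mice (log2 fold change 1.39 in untreated mice, adjusted p = 0.0546). All HD mice were above all WT mice in Gfap, whose part in the receptor differences was not tested.

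**Figure D4:**
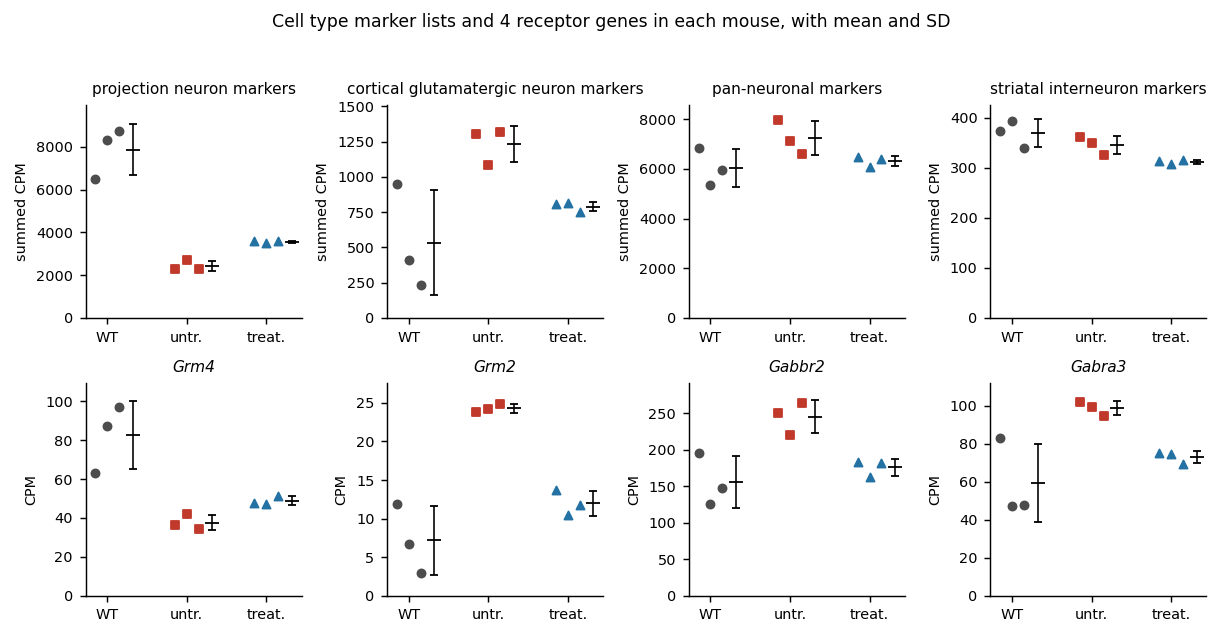
Summed CPM of 4 marker lists (top) and CPM of Grm4, Grm2, Gabbr2 and Gabra3 (bottom) in each of the 3 mice of each group, with mean and SD. Grm4 is highest in WT mice, as the projection neuron markers are, and Grm2, Gabbr2 and Gabra3 are highest in untreated HD mice, as the cortical glutamatergic neuron markers are.

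The genes around these receptors were examined as 5 lists with 72 genes. In untreated HD mice 3 rose and 20 fell, with a median log2 fold change of -0.14, against the same 4.58% and 6.1% of all genes. Among 12 auxiliary subunits of glutamate receptors 5 fell and 1 rose. Cacng4, an AMPA receptor auxiliary subunit (TARP), had the smallest P, with log2 fold changes of -1.26 in untreated (adjusted p = 0.00103) and -0.77 in treated mice (adjusted p = 0.0164), followed in order of P by Cacng3 at -0.68 and -0.64 (adjusted p = 0.00497 and 0.0121) and Gsg1l at -0.75 and -0.84 (adjusted p = 0.00836 and 0.00927). Cnih3, a cornichon auxiliary protein of AMPA receptors, rose in untreated mice (1.04, adjusted p = 0.0352).

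Of 18 excitatory scaffold genes 5 fell and 2 (Dlgap1 and Shank1) rose. Shank3, which anchors the postsynaptic density, was at 382, 497 and 444 CPM in WT mice, 255, 246 and 237 CPM in untreated and 254, 248 and 255 CPM in treated HD mice, so both HD groups lay far below WT mice at like values. It fell by 0.84 on the log2 scale in untreated and by 0.81 in treated mice (adjusted p = 0.00112 and 0.00331). Dlgap2 and Dlgap3 fell in both groups as well, by 0.60 and 0.68 in untreated mice (adjusted p = 0.00214 and 0.00627). In the same untreated mice Dlgap1 rose by 0.82 (adjusted p = 0.0258).

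Of 10 genes for making, moving and degrading GABA 3 fell and none rose. Abat, which degrades GABA, fell by 0.59, Slc32a1, the vesicular GABA transporter, fell by 0.77, and Gad2, a GABA-synthesizing enzyme, fell by 0.80 on the log2 scale in untreated mice (adjusted p = 0.00481, 0.0108 and 0.0207). None of these passed in treated mice (adjusted p = 0.0906, 0.100 and 0.121). Of 12 genes for glutamate synthesis and transport only Slc17a8, the vesicular transporter VGLUT3 of cholinergic interneurons, fell (-0.80, adjusted p = 0.0353). Of 20 partners of GABA receptors 6 fell and none rose, led by Shisa7, a GABA-A receptor auxiliary protein, at -0.71 (adjusted p = 0.00564), Plcl2 at -0.48 (adjusted p = 0.0150) and Clptm1 at -0.36 (adjusted p = 0.0170). Gphn, the inhibitory scaffold gephyrin, fell by 0.26 (adjusted p = 0.0399).

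To ask how treated HD mice stood against WT mice, the same fit was read for that contrast, which shares its WT mice with the one above. Only 3 of the 35 receptor genes passed the adjusted threshold (8.57%), where 3.69% of all genes did, and all 3 fell (Grm4, Gabrd and Grm3, against 2.78% of all genes falling). By unadjusted P below 0.05, 13 genes were lower and 1 (Gabra5) higher, against 11.6% and 9.78% of all genes (21.4% in either direction), and 1 of them, Grin3b, also differed at least 2-fold, against 5.22% of all genes. The groups had no overlap for 12 of the 35, against 28.6% of all genes. Of the 72 related genes 9 fell and none rose. The 32 receptor genes that did not pass had log2 fold changes from -1.02 to 0.75, and the 95% interval lay within a 2-fold change either way for 29 of them. The 3 calls were reduced to none without WT replicate 2 or without any 1 of the treated mice, and there were 5 without WT replicate 1 or untreated replicate 3. Without WT replicate 3 there were again 3, of which only Gabrd was shared. Of all genes, 1.55% passed without WT replicate 2, 3.43% without WT replicate 3 and 0.683% to 0.89% without a treated mouse. The share was 5.46% without WT replicate 1 and 6.96% without untreated replicate 3. That treated mice gave fewer calls against WT than untreated mice did is not by itself a difference between treated and untreated mice, which the next contrast addresses.

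Treated and untreated HD mice differ by design in the gRNA and so address the effect of HTT targeting. Among these mice only untreated replicate 1 had Y-linked reads, so sex was not balanced between the treated and untreated groups. No receptor gene passed the adjusted threshold between them, nor did any of the 19463 genes tested (0% of all genes; edgeR), and DESeq2 called 0 of the 35 receptor genes and 49 genes in all. At an unadjusted P below 0.05, 4 of the 35 differed (11.4%), against 5.5% of all genes. The log2 difference of treated minus untreated mice was -0.48 for Gabbr2 (95% interval -0.81 to -0.15, adjusted p = 0.886). For Grm2 the difference was -1.02 (95% interval -1.85 to -0.19, adjusted p = 0.886), which made it the only receptor gene past 2-fold at that P, against 0.771% of all genes. The difference for Gabra3 was -0.44 (-0.86 to -0.01, adjusted p = 0.889). For Grm4 it was 0.38 (0.05 to 0.70, adjusted p = 0.886). In each of the 4 the 3 treated and 3 untreated mice did not overlap, as for 8 of the 35 genes (22.9%), against 15.8% of all genes.

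The differences for these 4 genes stand beside those of the markers. The summed projection neuron markers were 1.47 times as high in treated as in untreated mice and the summed cortical markers 0.640 times as high. Of the 13 projection neuron markers 12 were higher at an unadjusted P below 0.05, and of the 7 cortical markers 1 was lower at that P, none of them passing the adjusted threshold. Their part in the 4 differences was not tested.

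Grin2a differed by -0.32 (95% interval -0.69 to 0.05, adjusted p = 0.901), with no overlap between the groups. Gabrd and Grm3, which fell in both HD groups against WT, differed between them by 0.10 (95% interval -0.21 to 0.42) and 0.08 (-0.16 to 0.32). The difference for Grin2b was 0.02 (-0.16 to 0.21). Over all 35 genes the median was 0.02 and over all genes tested -0.01, and for 32 of the 35 the 95% interval lay within a 2-fold change either way. The exceptions were Grm2 and the sparsely counted Grin3b and Gabre.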

How the data were processed

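Striatal 3′ mRNA libraries (oligo-dT primed) of 9 mice were analysed; the pig data were not used here. The authors deposited raw read counts per Ensembl gene. The submitters' processing notes list Trimmomatic 0.39, FastQC 0.11.9, HISAT2 2.2.1 and featureCounts 2.0.1, whereas the study's methods name STAR; the mouse genome build and the use of strand or molecular identifiers in counting are not given in the sources used here. Gene symbols were matched for 52081 of 55357 gene IDs. Counts were filtered (filterByExpr), scaled by TMM and fitted with all 3 groups in edgeR 4.0.16 (R 4.3.3; quasi-likelihood test, 6 residual degrees of freedom, no covariates), and p-values were adjusted by Benjamini-Hochberg over all 19463 genes. CPM use TMM-scaled library sizes, and errors are SD over 3 mice or SE of the fit. Intervals are at 95%. The p-values measure the spread between these mice. Scripts were tested on simulated data. DESeq2 1.42.0, other scalings and filters, covariates and leaving out each mouse were alternatives. Every mouse's value is given for genes under an adjusted p of 0.05 in either WT contrast and for the 5 smallest P of each contrast; of the related lists at most the 3 smallest P were to be named, and others (Cnih3, Dlgap1, Shank1, Gphn and the marker Gfap) were named after their values were seen. The genes and lists were chosen with earlier results of these data known. Replicate numbers were not used to pair the mice. Deviations from the group means had correlations from -0.081 to 0.236 for same-numbered mice and from -0.282 to 0.156 for the others. Between treated and untreated mice the same-numbered correlations were 0.191, -0.0030 and 0.236. With 3 mice a group these values cannot settle whether the numbers pair the mice.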

Additional observations from a re-analysis of the deposited data

How the results depend on the processing

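The 39 fold changes of the 13 genes given mouse by mouse kept their direction under most of 19 alternatives each. With cortical marker level as a covariate (added after seeing the data), Grid1 (-0.039) and Gabrd (-0.024) reversed between treated and untreated mice, and Gabbr2 (-0.0026) and Grin2a (-0.13) reversed between treated and WT mice. Leaving out single mice gave ranges that crossed 0 for Grin2b (-0.036 to 0.086), Grid1 (-0.073 to 0.18), Grm3 (-0.025 to 0.19) and Gabrd (-0.033 to 0.19) between treated and untreated mice and for Grin2a (-0.049 to 0.30) between treated and WT mice. None of these was a call.

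In untreated against WT mice the 12 receptor calls became 6 with no expression filter (35346 genes tested), 1 with the Y-linked share as covariate (Grm4), 2 with only the compared groups (Grm4 and Gabrd), 0 with the cortical covariate, and 5 to 20 when mice were left out. DESeq2 and scaling by pan-neuronal counts each gave 18, where 17.8% and 16.2% of all genes passed. Of all genes, 10.7% passed in the fit reported, 3.1% with no filter and 1.38% with the Y-linked covariate. The share was 3.89% with only the compared groups and 4.57% to 12.9% when mice were left out. It was 0.277% with the cortical covariate, whose level did not overlap between these groups. Receptor genes by the fold-change definition (3) were 0 with the cortical covariate and 3 to 5 when mice were left out, and those at an unadjusted P under 0.05 (22) were 9 with that covariate and 18 to 23. The 23 related genes became 35 with pan-neuronal scaling, 15 with no filter, 3 with the Y-linked covariate, 11 with only the compared groups, 0 with the cortical covariate and 13 to 24 when mice were left out.

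In treated against WT mice the 3 receptor calls became 1 with pan-neuronal scaling, 1 with no filter, 0 with the Y-linked or cortical covariate, 10 with DESeq2 and 0 to 5 when mice were left out. Of all genes, 3.69% passed in the fit reported, 1.36% with pan-neuronal scaling and 1.03% with no filter. The share was 0.0154% with the Y-linked covariate, 0.848% with the cortical covariate and 10.2% with DESeq2. When mice were left out it was 0.683% to 6.96%. The gene meeting the fold-change definition (1, Grin3b) was lost (0) with at least 10 counts in every library, the replicate block, either covariate or an unadjusted P under 0.01, and the count was 0 to 2 when mice were left out. Genes at an unadjusted P under 0.05 (14) became 4 with the Y-linked and 9 with the cortical covariate, and 9 to 22. The 9 related genes became 4 with pan-neuronal scaling, 0 with the Y-linked covariate, 17 with DESeq2, 4 with the cortical covariate and 2 to 17 when mice were left out.

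Between treated and untreated mice the gene meeting the fold-change definition (1, Grm2) was lost (0) with pan-neuronal scaling, the cortical covariate or an unadjusted P under 0.01, and the count was 0 to 1 when mice were left out. Genes at an unadjusted P under 0.05 (4) became 8 with pan-neuronal scaling, 2 with either covariate, 7 with only the compared groups and 2 to 5 when mice were left out. The count of calls was 0 under every alternative.

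With the replicate number as a block there were 13 receptor calls in untreated mice (Grin2a gained), 2 in treated mice against WT (Grm3 lost) and 0 between the HD groups. The shares of all genes called were 10.4%, 4% and 0%. Under pan-neuronal scaling the median of all genes was -0.25 in untreated and -0.07 in treated mice against WT and 0.18 between them, against 0.02, 0.0038 and -0.01 in the fit reported, and 16.8% of all calls in untreated mice were then higher, against 42.9% in the fit reported and 55.4% without TMM factors. Apart from fewer genes, mice or degrees of freedom where an alternative removed them, the cause of these changes was not tested. With 3 mice a group, Grin3b and Gabre at under 100 counts per library, and sex nearly confounded with group, small differences were not detectable.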

Other observations

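The following values were chosen after the levels were seen and are descriptions without a test. The ratio of Grin2a to Grin2b counts, which compares the same pair of transcripts between mice and not the number of molecules, was 0.369, 0.242 and 0.248 in WT mice, 0.545, 0.436 and 0.483 in untreated and 0.383, 0.377 and 0.3904 in treated HD mice. The 3 groups did not overlap, and treated mice lay between the others. The ratio of Gabbr2 to Gabbr1 was 0.237, 0.143 and 0.165 in WT mice, 0.354, 0.308 and 0.420 in untreated and 0.253, 0.225 and 0.250 in treated HD mice, so that untreated mice were above all others and the treated mice overlapped with WT mice. For Gabra3 to Gabra4 the means were 0.364 ± 0.183, 0.871 ± 0.077 and 0.551 ± 0.068 (SD, n = 3) in WT, untreated and treated mice, and WT replicate 1, at 0.562, lay among the treated mice. In all 3 ratios the highest WT value was that of replicate 1, the WT mouse with the most cortical marker signal, whose part in them was not tested.

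The receptor genes, like all genes tested, varied more among WT mice than among HD mice. WT mice had a median SD of log2 CPM of 0.293 over the 35 genes, against 0.219 over all genes tested. For untreated HD mice these were 0.153 and 0.165, and for treated HD mice 0.108 and 0.125.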
